A study of Homo sapiens with 18 samples.

Results

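The genes described are 39 of the 28086 genes in the count table and cover the synthesis of cholesterol and of fatty acids. They were taken by symbol from a given list, and every one was found and passed the filter on low counts. By role they are 18 enzymes of the sterol branch, 6 genes that control the sterol response or carry sterol, 12 enzymes of the fatty acid branch, and 3 genes that liver X receptors switch on. RNA was sequenced from LNCaP, an androgen-responsive line derived from a prostate cancer metastasis, whose genotype the labels give as WT. All 6 groups had 3 libraries, and their cells spent 48 h in the test medium. Control cells had RPMI with 10% heat-inactivated serum. M0, M1 and M2 cells had medium conditioned by THP-1 macrophages (a monocytic leukaemia line) that were unpolarised, M1-polarised or M2-polarised, diluted 1:4 in the control medium. Another 2 groups had M1 medium with DMSO or with IKK16, an inhibitor of the IκB kinases upstream of NF-κB, at 0.7 μmol/l. The control had neither DMSO nor medium that cells had used. Nothing in the labels tells whether replicates were separate cultures, so p-values cover the spread among libraries, which may be technical.

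Cells make cholesterol from acetyl-CoA through the mevalonate pathway, squalene and lanosterol, and make fatty acids from the same precursor through malonyl-CoA. SREBP-2 (gene SREBF2) mainly drives the sterol genes and SREBP-1 (gene SREBF1) mainly the fatty acid genes. Both are held in the endoplasmic reticulum with SCAP and INSIG proteins while sterol is plentiful, and are cut and sent to the nucleus when it is scarce. Liver X receptors sense oxidised sterols and switch on genes of cholesterol export. In prostate cancer cells androgen raises lipid synthesis, and FASN is a well-known tumour-associated enzyme of this tissue.

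Libraries held 24201857 to 33813538 gene counts, and 17033 genes were tested. Log2 CPM correlated across genes between replicates at 0.9927 to 0.9949 (Pearson), and every pair differed by more than counting noise (chi-square per gene at least 2.71). Levels are in CPM, counts scaled to library size. The 10 luminal prostate markers summed to 8934 to 9271 CPM in the control libraries, where none was at 0, and to 3117 to 3189 CPM in M1 medium. Of the 10, 6 were lower there and 3 higher (FOLH1 0.26, KRT8 0.49 and STEAP2 0.24, log2 fold changes). Of the 13 macrophage markers 5 passed the filter. All 13 together summed to 228 to 232 CPM in control and 245 to 265 CPM in M1 medium, most of it CSF1R. Of the 13, PTPRC, MRC1, TYROBP and CYBB were at 0 in M1 medium, and TYROBP, AIF1 and CYBB were at 0 in control. Against control, the M1 libraries held more ITGAM, LYZ and CD68 (log2 fold changes 6.98, 5.57 and 2.90). The edgeR adjusted p was below the threshold of 0.05 for each. The same M1 libraries held less CSF1R and SPI1 (-0.19 and -1.95). In whole-culture RNA, fewer cells of a kind and less RNA per cell cannot be told apart.

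M1 medium lowered most of the fatty acid branch and had smaller effects of both signs in the sterol branch. Against control, 26 of the 39 genes were lower and 8 higher by edgeR's quasi-likelihood test at a Benjamini-Hochberg adjusted p under 0.05 over all genes tested. Across all genes tested 31.9% were lower and 32.9% higher (64.8% either way), so a lower call was more frequent among these genes and a higher call less frequent. The fatty acid branch had 11 genes lower and 1 higher of 12, with a median log2 fold change of -0.86. The sterol branch had 10 lower and 4 higher of 18, with a median of -0.20, and the median over all genes was 0.00. Of the 6 control genes 5 were lower (median -0.33), and the 3 liver X receptor targets were all higher (median 0.83). A fall of at least 1.5-fold was found for 9 genes of the fatty acid branch, 3 of the sterol branch and 1 control gene, against 14.8% of all genes, and a rise of that size for 5 of the 39 genes, against 16.5%. Between the control and M1 libraries 34 of the 39 genes did not overlap, against 66.2% of all genes. Beside these genes 6 of the 10 luminal markers fell and 3 rose, and their part in the result was not tested.

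**Figure D1:**
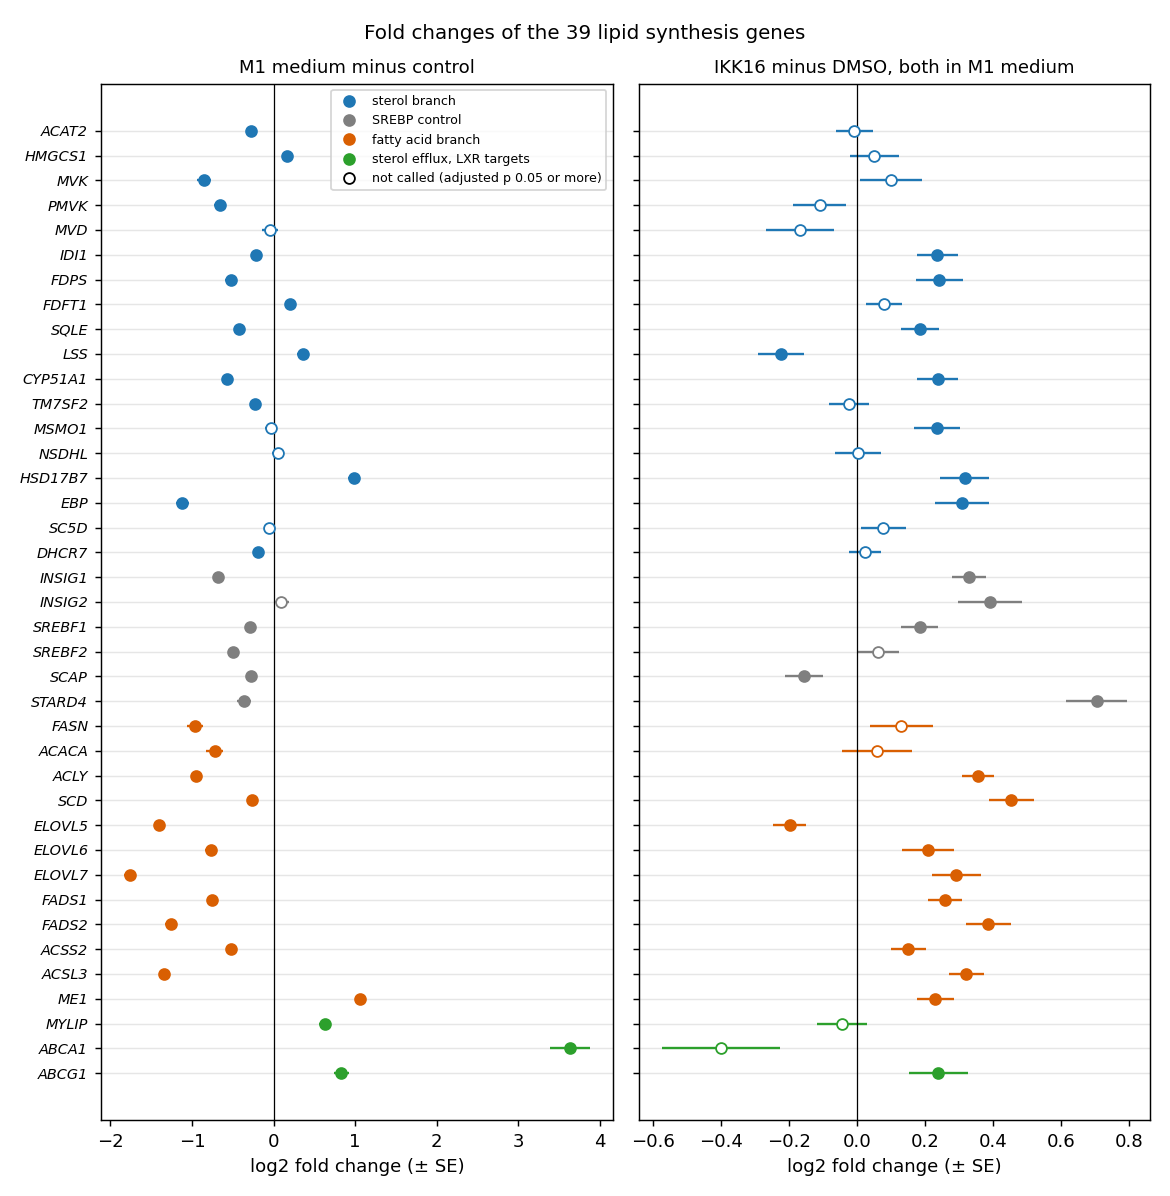
Log2 fold change (x axis, ± SE) of each of the 39 genes, in rows by branch, for M1 medium minus control and for IKK16 minus DMSO in M1 medium. Filled points passed the test at an adjusted p under 0.05; 26 filled points lie to the left and 8 to the right in the first comparison, 3 and 21 in the second.

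Per library, the median over the branch of each gene's log2 CPM minus its control mean gives the same contrast between the branches. For the fatty acid branch this median was 0.01, -0.04 and 0.07 in control and -0.83, -0.93 and -0.83 in M1 medium. For the sterol branch it was -0.02, 0.04 and 0.00 in control and -0.19, -0.18 and -0.17 in M1 medium. The libraries of the 2 groups did not overlap in either branch, and each M1 library was lower in the fatty acid branch than in the sterol branch. No test of the difference between branches was made, since the genes were chosen with results in view. The summed level tells the same: the 12 fatty acid genes held 7060 to 7404 CPM in control and 3771 to 4249 CPM in M1 medium, and the 18 sterol genes 1843 to 1965 and 1703 to 1740 CPM.

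**Figure D2:**
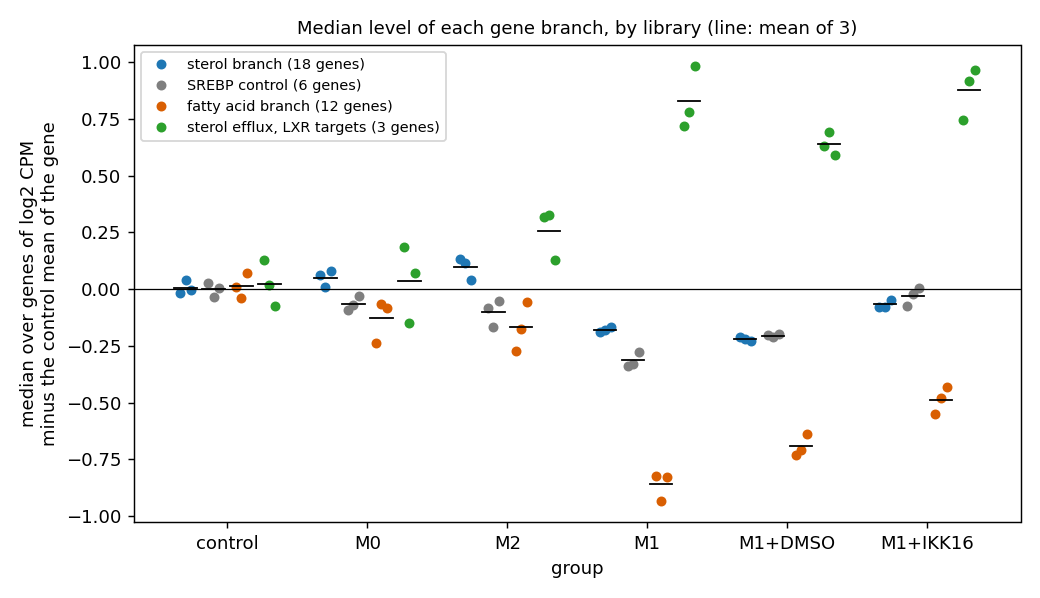
Median over the genes of each branch of log2 CPM minus the gene's control mean (y axis), 1 point per library and a line at the mean of 3, for the 6 groups (x axis). The fatty acid branch lies between -0.93 and -0.83 in M1 medium, the sterol branch between -0.19 and -0.17.

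Levels differ widely between these genes. Per kilobase of transcript, the control level was highest for FADS2 (348 ± 12.3 CPM per kb, SD, n = 3), FASN (263 ± 11.01), ACLY (241 ± 2.50) and ELOVL5 (217 ± 9.95). FADS2 stood above FASN by more than their SDs, and so did FASN above ACLY and ACLY above ELOVL5. The SDs do not cover the choice of transcript length, on which this order depends. The lengths used were 2964 bases for FADS2 and 3081 for ELOVL5, where other transcripts with similar counts have 3630 and 2827. The highest sterol enzyme was TM7SF2 (197 ± 12.9 CPM per kb), followed in that branch by FDFT1 (124 ± 4.72). SREBF1 stood at 160.5 ± 12.3 and SREBF2 at 67.5 ± 2.79 CPM per kb, and EBP and DHCR7 did not differ from SREBF2 beyond their SDs (66.8 ± 9.42 and 66.1 ± 1.84). ABCA1 was lowest at 0.0655 ± 0.0235 CPM per kb. The transcripts chosen for PMVK and INSIG1 have no length in the annotation used, so these genes are not placed.

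Promoter sequence is shown for the gene of SREBP-2 itself and for members of the fatty acid branch. SREBPs act on a sterol regulatory element together with NF-Y (which binds CCAAT) and Sp1 (which binds GGGCGG). ACLY and ACSS2 had the deepest falls in M1 medium among fatty acid genes whose CCAAT window lay outside annotated untranslated regions. ELOVL5 and ACSL3 fell further and hold CCAAT but did not meet that rule, nor did any sterol gene that fell. Of the 39 genes 34 are in the RefSeq promoter table (GRCh38.p14), and the 250 bases before the table's start site were searched on both strands. The letters TCACNCCAC stood in 1 of the 34, SREBF2, and in 0.875% of all 27305 promoters. Capitals mark the letters named in each line, written 5′ to 3′ on the strand of the gene. The SREBF2 line also holds the CCAAT of the other strand, at -106 from the start, left in small letters.
SREBF2, chr22:41832932-41833020, plus strand, with TCACCCCAC in capitals: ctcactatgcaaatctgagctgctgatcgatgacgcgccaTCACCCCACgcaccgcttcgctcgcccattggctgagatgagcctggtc
ACLY, chr17:41919023-41919075, minus strand, with CCAAT in capitals: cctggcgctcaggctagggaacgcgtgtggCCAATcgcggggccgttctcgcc
ACSS2, chr20:34874836-34874900, plus strand, with the GGGCGG and the CCAAT of the other strand in capitals: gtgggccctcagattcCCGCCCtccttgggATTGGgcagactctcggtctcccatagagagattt
The ACLY window lies before the start given in that table, which is inside the outer span of the gene, and the SREBF2 window lies over an exon of the antisense RNA SREBF2-AS1. CCAAT stood in 12 of 15 sterol promoters, 5 of 11 fatty acid promoters and 33.0% of all promoters. GGGCGG stood in 14 of 15, 9 of 11 and 42.3%. The E-box CACGTG stood in 5 of the 34 (SC5D, INSIG1, SCAP, ELOVL5 and ABCA1) and in 6.49% of all. These counts describe letters in the window, not binding.

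The first steps of the sterol branch fell most at the mevalonate kinases and moved less at the start. ACAT2, which joins acetyl-CoA units, was lower in M1 medium (-0.28 ± 0.05, edgeR adjusted p = 6.32e-05; values in this form are log2 fold changes ± SE). HMGCS1, which makes HMG-CoA, had 80.0, 72.5 and 85.1 CPM in the control libraries, 64.8, 76.6 and 80.9 in M0, 75.6, 79.1 and 79.3 in M2 and 91.8, 85.3 and 90.3 in M1 medium. Its M1 libraries stood just above the control ones (0.17 ± 0.07, edgeR adjusted p = 0.043). That call was lost under 6 of 15 alternatives, which gave adjusted p up to 0.39. MVK (chromosome 12, 109573272 to 109598125), the mevalonate kinase, had 42.6, 45.0 and 40.3 CPM in control, 43.6, 37.0 and 42.4 in M0, 41.3, 42.6 and 45.0 in M2 and 21.0, 23.5 and 26.3 in M1 medium. All M1 libraries were below all others of these groups, a 1.81-fold fall from control (-0.85 ± 0.09, edgeR adjusted p = 1.63e-08). PMVK, the next kinase, had 80.2, 85.6 and 64.8 CPM in control, 77.2, 70.8 and 74.3 in M0, 80.3, 73.0 and 76.9 in M2 and 49.3, 46.7 and 49.9 in M1 medium. It too was lowest in M1 medium, without overlap (-0.66 ± 0.08, edgeR adjusted p = 7.75e-08). MVD, the decarboxylase that follows, did not pass (-0.05 ± 0.10, 95% interval -0.24 to 0.14). IDI1, which isomerises the product, and FDPS, which makes farnesyl diphosphate, were lower (-0.21 and -0.52).

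Several of these loci share bases with a gene on the other strand, and the strand setting of the counting is not given in the sources used here, so their reads cannot be told apart in the shared stretch. ACAT2 shares 237 bases with SOD2, which went from 173 to 2293 CPM, and 615 with TCP1, which fell (-0.27). MVK shares 233 bases with MMAB, FDPS 3812 with RUSC1-AS1 and IDI1 5050 with IDI2-AS1, and each partner fell with its gene (-0.69, -0.50 and -0.21).

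From squalene to cholesterol the members split. FDFT1, the squalene synthase, and LSS, the lanosterol synthase, rose (0.20 ± 0.05 and 0.36 ± 0.07, edgeR adjusted p = 0.00209 and 8.16e-05). The FDFT1 call was lost with the trend of fold change with transcript length removed (adjusted p = 0.074). FDFT1 in M1 medium (mean 378 CPM) did not pass against M0 or M2 medium (means 381 and 367 CPM, edgeR adjusted p = 0.860 and 0.485). SQLE, the squalene epoxidase between those steps, had 54.9, 54.1 and 59.2 CPM in control, 50.1, 51.7 and 55.6 in M0, 55.8, 54.3 and 54.1 in M2 and 41.3, 40.4 and 43.6 in M1 medium. Its fall from control to M1 medium was 1.34-fold, with no overlap (-0.43 ± 0.06, edgeR adjusted p = 5.15e-07). CYP51A1, the lanosterol demethylase, and TM7SF2, a sterol reductase, were lower as well (-0.57 and -0.22). MSMO1 and NSDHL, which remove methyl groups of the ring, did not pass (-0.04 ± 0.07 and 0.05 ± 0.07, 95% intervals -0.17 to 0.10 and -0.09 to 0.18).

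HSD17B7, the keto-reductase of the same demethylation, and EBP, the isomerase of the next step, had the largest changes of the branch and went in opposite directions. HSD17B7 (chromosome 1, 162790702 to 162812823) had 14.3, 17.5 and 16.4 CPM in control, 21.1, 19.6 and 21.8 in M0, 21.8, 19.97 and 19.8 in M2 and 32.1, 32.8 and 30.1 in M1 medium. It was 1.97-fold higher in M1 medium than in control (0.98 ± 0.07, edgeR adjusted p = 5.24e-11), and its M1 libraries stood above all those of M0 and M2 medium. The copy HSD17B7P2 was counted separately at 2.03 CPM in control and 2.81 CPM in M1 medium, and how reads that match both were placed is not given in the sources used here. EBP (chromosome X, 48521808 to 48528716) had 115, 137 and 104 CPM in control, 133, 125 and 139.5 in M0, 149, 137 and 131 in M2 and 54.7, 54.4 and 54.5 in M1 medium. The M1 libraries were 2.17-fold lower than control and lay within 1 CPM of each other (-1.12 ± 0.08, edgeR adjusted p = 1.29e-11). SC5D, the desaturase that follows, did not pass (-0.06 ± 0.06, 95% interval -0.18 to 0.07) but was lower with the length trend removed (-0.15, edgeR adjusted p = 0.0293), and DHCR7, which reduces 7-dehydrocholesterol, was lower (-0.19).

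The genes that control the response fell by moderate amounts. SREBF1 (chromosome 17, 17811334 to 17836986) had 694, 705 and 612 CPM in control, 621, 625 and 607 in M0, 622, 626 and 651 in M2 and 527, 526 and 591 in M1 medium. SREBF2 (chromosome 22, 41833105 to 41907305) had 369.7, 341 and 351 CPM in control, 297, 316 and 308 in M0, 292, 300.2 and 325 in M2 and 248, 225 and 277 in M1 medium. Both fell from control to M1 medium without overlap (-0.29 ± 0.05 and -0.50 ± 0.06, edgeR adjusted p = 7.04e-05 and 1.07e-07). SCAP, the escort of both proteins, was lower too (-0.28 ± 0.05). Its mean was 147 CPM in control and 122, 124 and 121 CPM in M0, M2 and M1 medium. M1 medium did not pass against M0 or M2 medium for SCAP (edgeR adjusted p = 0.842 and 0.652). Both differences passed under some alternatives, with log2 fold changes down to -0.18 and -0.19. INSIG1, which retains SCAP and is itself a classic SREBP target, had 126, 128 and 129 CPM in control, 121, 125 and 135 in M0, 123, 126 and 130.2 in M2 and 80.2, 77.6 and 81.8 in M1 medium. It was 1.60-fold lower in M1 medium (-0.68 ± 0.05, edgeR adjusted p = 2.89e-11), while the 3 other groups overlapped each other. INSIG2, its relative, did not pass (0.10 ± 0.09, 95% interval -0.09 to 0.28). STARD4, which moves cholesterol between membranes, had 16.8, 15.6 and 16.8 CPM in control, 17.8, 18.3 and 20.7 in M0, 19.5, 16.9 and 17.2 in M2 and 13.1, 13.2 and 12.03 in M1 medium, and was lower in M1 medium (-0.36 ± 0.09, edgeR adjusted p = 0.00109). Its antisense neighbour STARD4-AS1, with 310 shared bases, fell more (-1.62), and SREBF2-AS1 fell with SREBF2 (-0.48).

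The enzymes of the fatty acid branch that supply acetyl-CoA, make malonyl-CoA and build palmitate all fell. ACLY (chromosome 17, 41866917 to 41930545), which makes cytosolic acetyl-CoA from citrate, had 1057, 1039 and 1037 CPM in control, 904, 1016 and 1005 in M0, 862, 873 and 927 in M2 and 553, 515 and 559 in M1 medium. ACACA (chromosome 17, 37084992 to 37406836), which makes malonyl-CoA, had 499, 453 and 523 CPM in control, 340.3, 473 and 411 in M0, 353, 437 and 488 in M2 and 314, 273 and 307 in M1 medium. FASN (chromosome 17, 82078338 to 82098236), which builds palmitate, had 2359, 2216 and 2181 CPM in control, 1677, 2168 and 1889 in M0, 1746, 1919 and 2199 in M2 and 1145, 1012 and 1309 in M1 medium. In each the M1 libraries were below those of the 3 other groups. The log2 fold changes from control were -0.95 ± 0.05 for ACLY, -0.72 ± 0.10 for ACACA and -0.96 ± 0.09 for FASN (edgeR adjusted p = 2.57e-14, 2.03e-06 and 4.41e-09). ACSS2, which makes acetyl-CoA from acetate, was 1.44-fold lower (-0.52 ± 0.05).

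Elongation and desaturation held the largest falls. ELOVL5 (chromosome 6, 53267404 to 53348950), which lengthens polyunsaturated chains, had 659, 644 and 703 CPM in control, 598, 631 and 649.9 in M0, 573, 575 and 601 in M2 and 258, 252 and 247 in M1 medium. ELOVL7 (chromosome 5, 60751791 to 60844269), which lengthens very long saturated chains, had 108, 106 and 125 CPM in control, 93.3, 102 and 101 in M0, 93.0, 95.7 and 103 in M2 and 34.1, 32.6 and 33.3 in M1 medium. ELOVL7 fell 3.39-fold and ELOVL5 2.65-fold from control to M1 medium (-1.76 ± 0.07 and -1.41 ± 0.05, edgeR adjusted p = 2.46e-16 and 2.11e-17), the deepest falls of the 39 genes. ELOVL6, which lengthens palmitate, had 47.4, 49.0 and 52.1 CPM in control, 51.1, 56.7 and 58.8 in M0, 61.7, 55.4 and 53.7 in M2 and 31.0, 29.3 and 27.0 in M1 medium, again with no overlap (-0.77 ± 0.08, edgeR adjusted p = 5.67e-09).

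FADS1 and FADS2, the desaturases of polyunsaturated chains, lie side by side on chromosome 11 and share 801 bases on opposite strands. FADS1 (61799627 to 61817003) had 171, 168 and 169 CPM in control, 166, 174 and 168 in M0, 171, 164 and 164 in M2 and 102, 95.5 and 103 in M1 medium. FADS2 (61816203 to 61867354) had 1065, 1038 and 993 CPM in control, 846, 937 and 947 in M0, 855, 907 and 985 in M2 and 435, 380.0 and 475 in M1 medium. Both were lower in M1 medium (-0.76 ± 0.05 and -1.26 ± 0.07, edgeR adjusted p = 3.62e-12 and 5.86e-14). SCD, which puts the first double bond into saturated chains, moved least of the branch: it had 832, 755 and 849 CPM in control, 635, 771 and 762 in M0, 669.9, 721 and 799 in M2 and 695, 651 and 688 in M1 medium. Its fall from control passed (-0.26 ± 0.07, edgeR adjusted p = 0.0015), but its difference from M0 and M2 medium did not (-0.09 ± 0.07 and -0.11 ± 0.07, edgeR adjusted p = 0.224 and 0.159). Both differences passed once the trend with length was taken out (-0.29 in both, edgeR adjusted p = 1.26e-05 and 1.22e-05). They also passed without M0 replicate 1 (-0.18, edgeR adjusted p = 0.0141) and without M2 replicate 1 (-0.16, edgeR adjusted p = 0.0396).

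ACSL3 and ME1 close the branch and moved apart. ACSL3 (chromosome 2, 222861036 to 222944639), an androgen-induced enzyme that activates fatty acids with coenzyme A, had 378, 368 and 404 CPM in control, 319, 342 and 349 in M0, 299.9, 312 and 317 in M2 and 154, 154 and 144 in M1 medium. ME1 (chromosome 6, 83210402 to 83431051), the cytosolic malic enzyme that supplies NADPH, had 145, 141 and 158 CPM in control, 168, 163 and 171 in M0, 168, 173 and 158 in M2 and 313, 319 and 297 in M1 medium. M1 medium held 2.54-fold less ACSL3 and 2.09-fold more ME1 than control (-1.35 ± 0.05 and 1.06 ± 0.05, edgeR adjusted p = 2.06e-16 and 3.39e-14). ME1 was the 1 member of the fatty acid branch that rose.

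**Figure D3:**
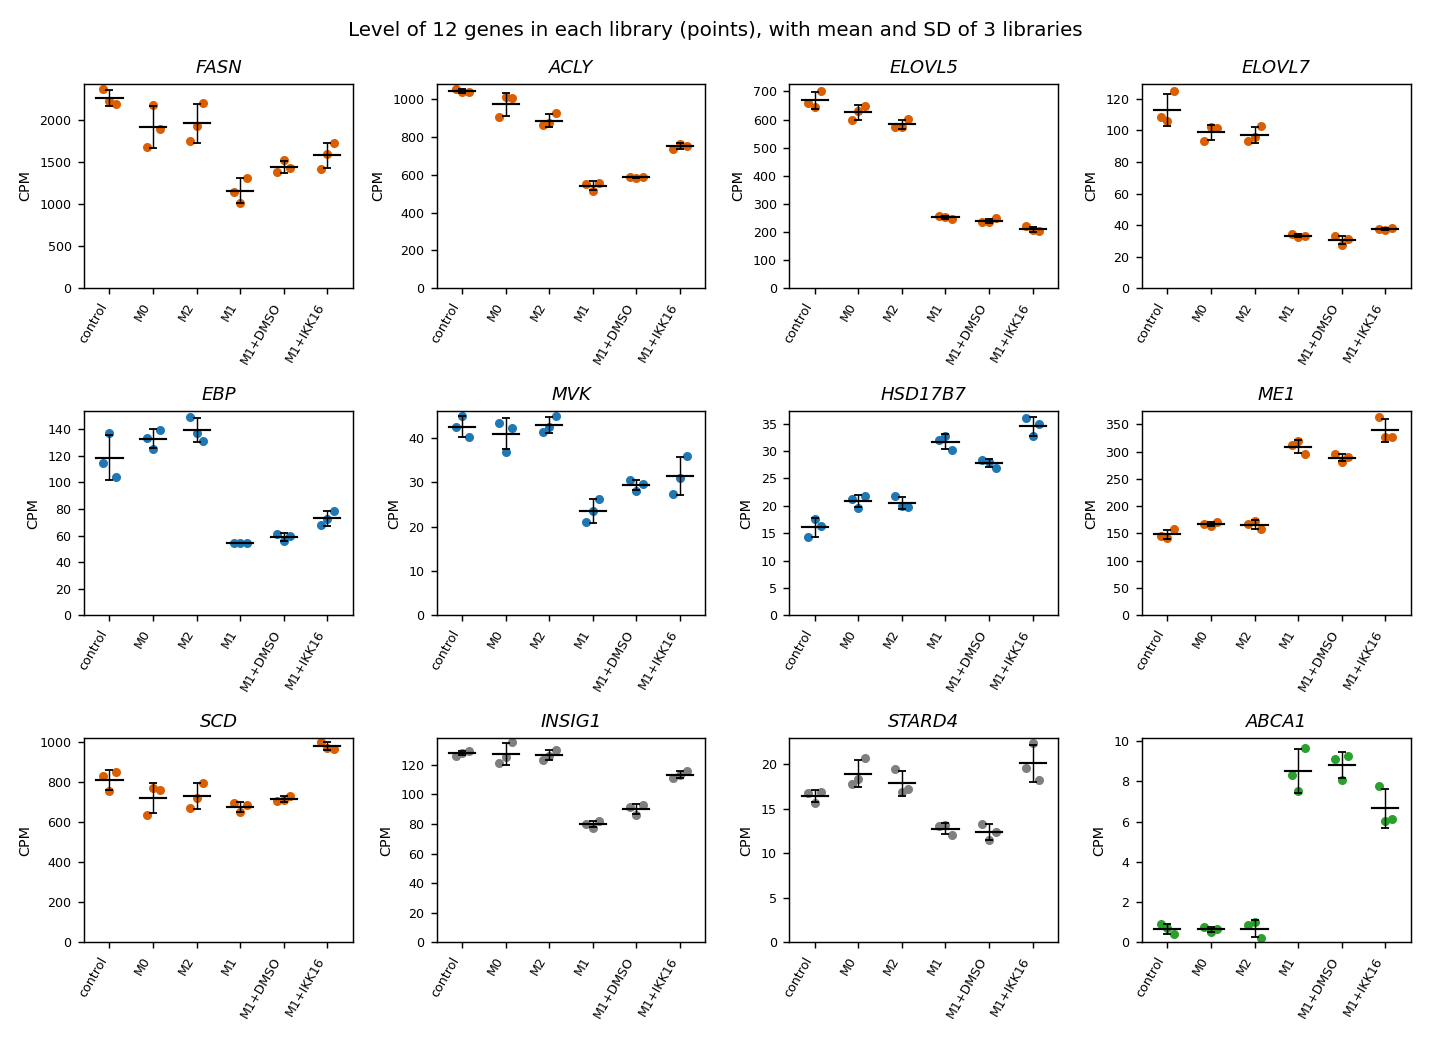
Level (y axis, CPM from 0) of 12 of the genes in each library (points), with the mean and SD of the 3 libraries of each of the 6 groups (x axis). For ACLY the M1 libraries lie between 515 and 559 CPM and the control libraries between 1037 and 1057 CPM.

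All 3 liver X receptor targets rose in M1 medium. ABCA1 (chromosome 9, 104781006 to 104928155), which exports cholesterol to lipoproteins, had 0.924, 0.706 and 0.432 CPM in control, 0.763, 0.514 and 0.688 in M0, 0.840, 1.02 and 0.198 in M2 and 8.29, 7.53 and 9.68 in M1 medium. It was 12.4-fold higher than in control (3.63 ± 0.24, edgeR adjusted p = 4.35e-12). ABCG1, a second sterol exporter, had 17.02, 14.96 and 14.8 CPM in control, 17.03, 14.0 and 16.3 in M0, 19.0, 16.8 and 17 in M2 and 25.6, 26.8 and 30.8 in M1 medium. MYLIP, which tags lipoprotein receptors for breakdown, had 18.5, 18.4 and 17.7 CPM in control, 20.7, 18.4 and 20.8 in M0, 22.7, 22.8 and 21.0 in M2 and 27.3, 28.6 and 28.4 in M1 medium. In ABCG1 and MYLIP all M1 libraries stood above all libraries of the 3 other groups, by 1.78-fold and 1.54-fold over control (0.83 ± 0.09 and 0.63 ± 0.07, edgeR adjusted p = 1.83e-08 and 9.03e-08). Of 7 further liver X receptor genes tested (receptors, partners, cofactors and targets), 2 were higher and 2 lower, near the shares of all genes. The receptor gene NR1H2 rose (0.47 ± 0.07), while the receptor gene NR1H3 (-0.47 ± 0.10) and the corepressor gene NCOR1 (-0.48 ± 0.09) fell.

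Set against the other macrophage media instead of control, M1 medium gave similar counts. Against M0 medium 26 genes were lower and 7 higher, where 33% of all genes were lower and 34.2% higher (67.2% either way). Against M2 medium 26 were lower and 8 higher, where 33.2% and 34.3% of all genes were (67.5% either way). The sterol branch had 12 lower and 3 higher of 18 in either comparison, with medians of -0.27 and -0.24. The fatty acid branch had 10 lower and 1 higher of 12 in either, with medians of -0.80 and -0.75. These comparisons share the M1 libraries with the one against control. MSMO1, which did not pass against control, had less in M1 medium than in M0 (-0.28 ± 0.07) or M2 medium (-0.28 ± 0.07), with edgeR adjusted p = 0.00082 and 0.000902. SC5D, also not called against control, was lower than in M0 and M2 medium (edgeR adjusted p = 0.000894 and 0.00684). INSIG2 was called higher than in M2 medium (edgeR adjusted p = 0.0233), a call lost under 5 of 15 alternatives. FDFT1, SCAP and SCD passed against control but against neither M0 nor M2 medium.

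M0 and M2 media moved these genes little. In M0 medium 6 of the 39 genes were higher than in control and 3 lower, where 6.68% of all genes tested were higher and 5.09% lower (11.8% either way). In M2 medium 3 were higher and 6 lower, where 5.28% and 3.49% of all genes were (8.77% either way). No member changed by 1.5-fold in either medium, and few of all genes did (0.205% higher and 0.0646% lower in M0 medium, 0.364% and 0.276% in M2 medium). HSD17B7 and MSMO1 were higher in both (HSD17B7 0.38 ± 0.08 and 0.36 ± 0.08, MSMO1 0.24 ± 0.07 and 0.24 ± 0.07). SREBF2, SCAP and ACSL3 were lower in both (ACSL3 -0.19 ± 0.05 and -0.31 ± 0.05). The other calls were IDI1, FDFT1, SC5D and ME1, higher in M0 medium, MYLIP, higher in M2 medium, and ACLY, ELOVL5 and ELOVL7, lower in M2 medium, with log2 fold changes between -0.24 and 0.29. Both media were compared with the same control libraries.

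These counts changed with single libraries left out. Without control replicate 1 or without M0 replicate 1, no member was called for M0 medium, and without M0 replicate 3 there were 1 higher and 2 lower. Leaving out control replicate 2 gave 5 higher and 6 lower, and leaving out M0 replicate 2 gave 6 and 5. For M2 medium there were 0 higher and 2 lower without control replicate 1 or M2 replicate 1, and 1 and 2 without M2 replicate 2. Leaving out control replicate 2 gave 6 and 6, and leaving out M2 replicate 3 gave 10 and 10. Fold changes also went with transcript length across 15053 genes (Spearman correlation -0.34 for M0 and -0.29 for M2 medium, against 0.06 for M1 medium), and with that trend removed 6 were higher and 2 lower in M0 medium and 7 and 4 in M2 medium. Of the 18 calls, only that of ACSL3 in M2 medium held under every alternative run. Between M2 and M0 medium no member passed edgeR or DESeq2, 4 had an unadjusted edgeR p under 0.05, and 18 of all genes were called (0.106%).

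IKK16 raised much of the set in M1 medium. Against DMSO, 21 of the 39 genes were higher and 3 lower, where 14.4% of all genes tested were higher and 12.9% lower (27.3% either way). The change reached 1.5-fold in 1 of them, STARD4, which was higher, where 2.83% of all genes were higher and 3.32% lower by that much. The libraries of 27 of the 39 genes did not overlap, against 44.5% of all genes. The fatty acid branch had 9 higher and 1 lower of 12 (median 0.24), the control genes 4 higher and 1 lower of 6 (median 0.26), and the sterol branch 7 higher and 1 lower of 18 (median 0.08), beside a median of 0.01 over all genes. Of the 26 genes lower in M1 medium 16 were higher with IKK16, where 30.9% of all genes lower in M1 medium were; those 16 compare with 9.84% of all genes tested. Of the 8 genes higher in M1 medium 3 were higher again with IKK16, against 5.54% of all genes higher in M1 medium. The comparison of M1 medium with control and that of IKK16 with DMSO share no library. The luminal markers moved with them: 7 of 10 were higher with IKK16 and 1 lower, and their sum went from 3252 to 3308 CPM with DMSO to 3909 to 3952 CPM with IKK16. Their part in the result was not tested.

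**Figure D4:**
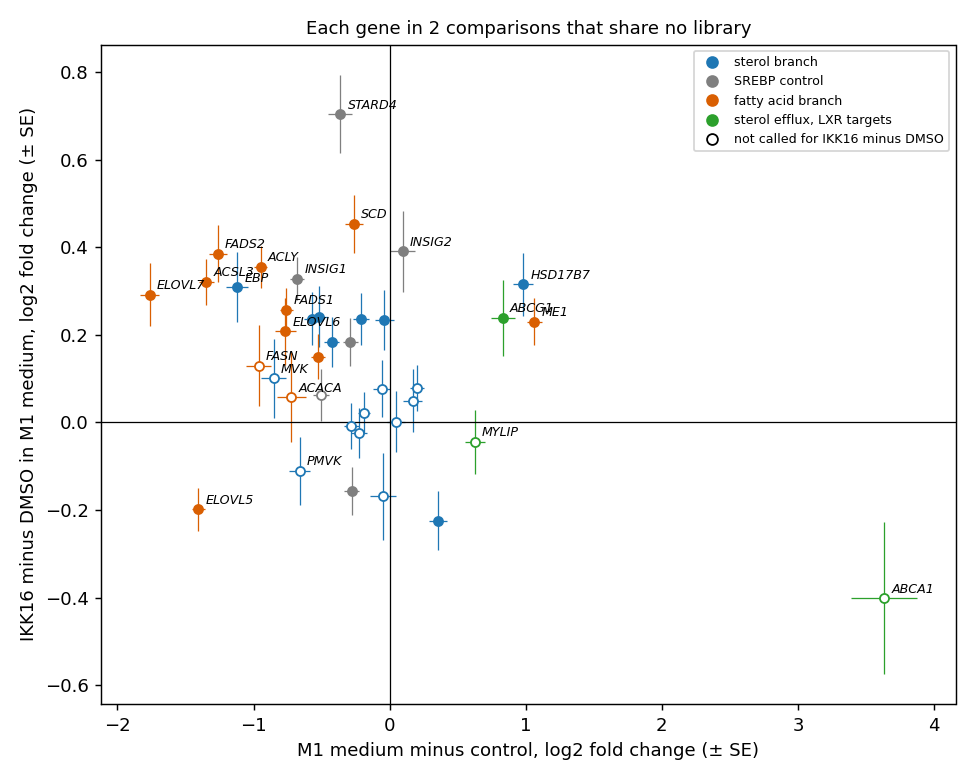
Log2 fold change of each gene for M1 medium minus control (x axis, ± SE) against IKK16 minus DMSO in M1 medium (y axis, ± SE), with colours for the branches and open points for genes that did not pass in the second comparison. Of the genes that passed in both, 16 lie at the upper left, lower in M1 medium and higher with IKK16.

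In the fatty acid branch the largest rises with IKK16 by fold change were those of SCD, FADS2 and ACLY. SCD had 705, 713 and 733 CPM with DMSO and 1004, 974 and 968 with IKK16 (0.45 ± 0.07, edgeR adjusted p = 1.74e-05), and was then above control (0.27 ± 0.07). FADS2 had 514, 509 and 543 CPM with DMSO and 672, 670.2 and 702 with IKK16 (0.39 ± 0.07, edgeR adjusted p = 0.000116). ACLY had 589.6, 586 and 591 CPM with DMSO and 738, 766 and 755 with IKK16 (0.36 ± 0.05, edgeR adjusted p = 5.12e-06). Neither FADS2 nor ACLY reached the control level (-0.60 ± 0.07 and -0.47 ± 0.05 against control, which had no DMSO). ACSL3 had 138, 146 and 153 CPM with DMSO and 189, 181 and 176 with IKK16 (0.32 ± 0.05). ELOVL7 had 32.8, 27.5 and 31.3 CPM with DMSO and 37.2, 36.7 and 37.9 with IKK16 (0.29 ± 0.07), and FADS1 had 107, 107 and 113.9 CPM with DMSO and 129.6, 124 and 138 with IKK16 (0.26 ± 0.05). These 3 rises passed too, and all 3 genes stayed below control (-1.07, -1.60 and -0.37).

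FASN and ACACA did not follow. FASN had 1376, 1520.1 and 1423 CPM with DMSO and 1415, 1593 and 1717 with IKK16, ranges that overlap (0.13 ± 0.09, 95% interval -0.05 to 0.31, edgeR adjusted p = 0.328). ACACA had 292, 349 and 334 CPM with DMSO and 323, 351 and 340.3 with IKK16, which overlap as well (0.06 ± 0.10, 95% interval -0.14 to 0.26, edgeR adjusted p = 0.725). ELOVL5 went down further, from 236, 237 and 248 CPM with DMSO to 219.6, 205 and 203 with IKK16 (-0.20 ± 0.05, edgeR adjusted p = 0.00354). ME1, the gene that M1 medium had raised, rose again, from 296, 282 and 291 to 364, 327 and 327 CPM (0.23 ± 0.05, edgeR adjusted p = 0.00247). ELOVL6 had 35.0, 29.2 and 32.3 CPM with DMSO and 38.1, 35.6 and 37.5 with IKK16, and its call (0.21 ± 0.08, edgeR adjusted p = 0.0488) was lost under 11 of 15 alternatives. ACSS2 passed as well (0.15 ± 0.05, edgeR adjusted p = 0.0303) and lost its call under 5 of 15.

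Of the control genes STARD4 gave the largest response of the set to IKK16. STARD4 had 13.3, 11.5 and 12.3 CPM with DMSO and 19.6, 22.4 and 18.3 with IKK16, a 1.63-fold rise (0.70 ± 0.09, edgeR adjusted p = 2.66e-06), to a level above control (0.29 ± 0.09, a call lost under 1 of 15 alternatives). STARD4-AS1 was at 13.9 CPM with DMSO and 14.2 CPM with IKK16 and did not pass. INSIG1 had 91.4, 86.4 and 92.8 CPM with DMSO and 111, 113 and 116 with IKK16 (0.33 ± 0.05, edgeR adjusted p = 2.92e-05), and INSIG2 was higher as well (0.39 ± 0.09). SREBF1 had 649.8, 650.0 and 629 CPM with DMSO and 694, 735 and 762 with IKK16 (0.18 ± 0.05, edgeR adjusted p = 0.0153), a call lost under 3 of 15 alternatives. SREBF2 had 275, 284 and 285 CPM with DMSO and 290.5, 294 and 297 with IKK16, ranges that do not overlap, and did not pass (0.06 ± 0.06, 95% interval -0.05 to 0.18). SCAP was lower (-0.16 ± 0.06, edgeR adjusted p = 0.0386), which was lost under 5 of 15 alternatives.

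In the sterol branch the rises with IKK16 were small. EBP had 61.0, 55.6 and 59.9 CPM with DMSO and 67.8, 72.2 and 78.3 with IKK16 (0.31 ± 0.08, edgeR adjusted p = 0.00546). HSD17B7 had 28.3, 28.1 and 26.9 CPM with DMSO and 36.0, 32.7 and 34.9 with IKK16 (0.32 ± 0.07, edgeR adjusted p = 0.0021), and so rose in both comparisons. SQLE had 43.6, 44.0 and 43.2 CPM with DMSO and 50.5, 49.7 and 48.5 with IKK16 (0.18 ± 0.06, edgeR adjusted p = 0.0176), a call lost under 3 of 15 alternatives. IDI1, FDPS, CYP51A1 and MSMO1 were higher by 0.23 to 0.24 on the log2 scale, of which FDPS and MSMO1 each lost their call under 2 of 15 alternatives. LSS, which M1 medium had raised, was lower (-0.22 ± 0.07, edgeR adjusted p = 0.0164), a call that was also lost under 2 of 15. The early steps did not pass: HMGCS1 had 77.7, 85.6 and 86.8 CPM with DMSO and 91.0, 85.9 and 82.1 with IKK16. MVK had 30.5, 28.1 and 29.7 CPM with DMSO and 27.4, 31.1 and 35.9 with IKK16, and PMVK 53.8, 53.4 and 57.8 CPM with DMSO and 48.4, 50.7 and 53.6 with IKK16. The 95% intervals of their log2 fold changes were -0.09 to 0.19, -0.08 to 0.28 and -0.26 to 0.04. Another 7 sterol genes did not pass (ACAT2, MVD, FDFT1, TM7SF2, NSDHL, SC5D and DHCR7), with log2 fold changes from -0.17 to 0.08. MVD passed as lower with these groups fitted alone (edgeR adjusted p = 0.0464).

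The liver X receptor targets did not share a direction with IKK16. ABCA1 had 9.09, 8.08 and 9.26 CPM with DMSO and 7.77, 6.05 and 6.13 with IKK16, lower in each library without passing (-0.40 ± 0.17, edgeR adjusted p = 0.0917). Without the filter on low counts it passed edgeR (adjusted p = 0.0482), as it did with the 2 groups fitted alone (adjusted p = 0.0115). ABCG1 had 24.1, 25.2 and 23.5 CPM with DMSO and 26.1, 29.4 and 30.5 with IKK16 and was called higher (0.24 ± 0.09, edgeR adjusted p = 0.0433), a call lost under 8 of 15 alternatives. MYLIP had 27.4, 25.5 and 24.0 CPM with DMSO and 27.4, 23.3 and 23.9 with IKK16, which overlap (-0.04 ± 0.07, 95% interval -0.19 to 0.10). All 3 stayed above control with IKK16 (3.28, 0.88 and 0.45).

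With IKK16, M1 medium still differed from control in most of these genes. Against control, 21 were lower and 10 higher, where 25.4% of all genes tested were lower and 27.1% higher (52.5% either way). The fatty acid branch had 10 lower and 2 higher of 12 (median -0.49) and the sterol branch 8 lower and 3 higher of 18 (median -0.08). Since the control had no DMSO, inhibitor and solvent cannot be told apart here. DMSO in M1 medium, set against M1 medium alone, gave 5 higher genes and none lower (378 and 346 of all genes, 2.22% and 2.03%, 4.25% either way). They were TM7SF2 (0.30 ± 0.06), DHCR7 (0.21 ± 0.05), INSIG1 (0.17 ± 0.05), SREBF1 (0.23 ± 0.05) and FADS2 (0.28 ± 0.07). With unadjusted edgeR p under 0.05 there were 17, and no call of the 5 held under every alternative. The count was 0 without M1 replicate 2 or M1 DMSO replicate 1, 2 without M1 replicate 1, M1 DMSO replicate 2 or M1 DMSO replicate 3, and 10 higher and 1 lower without M1 replicate 3.

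Counts for the other lists of lipid genes stand beside the same shares of all genes tested: 32.9% higher and 31.9% lower in M1 medium against control, and 14.4% and 12.9% with IKK16 against DMSO. Of 10 genes of SREBP processing and INSIG turnover, 3 were higher and 4 lower in M1 medium, near the shares of all genes. RNF145, a ubiquitin ligase that liver X receptors induce and that acts on SCAP, went from 49.1 ± 0.506 CPM in control to 175 ± 2.60 in M1 medium (levels ± SD, n = 3, log2 fold change 1.84 ± 0.05). SEC24D, a coat protein of the vesicles that leave the endoplasmic reticulum, rose (0.95 ± 0.06), and ERLIN2 rose (0.31 ± 0.05) while ERLIN1 fell (-0.35 ± 0.07). MBTPS2, the second protease that cuts SREBPs, fell (-0.32 ± 0.06). IKK16 raised 2 of the 10, ERLIN1 and MBTPS2 (0.20 ± 0.07 and 0.17 ± 0.06). Another 10 genes belong to routes from isoprenoid diphosphates, such as farnesyl diphosphate, to products other than sterol. Of these 1 was higher, FNTA (0.36 ± 0.06), and 5 lower, among them PDSS1 (-0.73 ± 0.08) and COQ2 (-0.62 ± 0.07) of ubiquinone synthesis. With IKK16, PDSS1 and FNTA were higher (0.38 and 0.24) and RABGGTA lower (-0.23).

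Of 10 genes of sterol uptake and transport 6 were higher and 2 lower in M1 medium, where 32.9% and 31.9% of all genes were, with a median log2 fold change of 0.33. The lipoprotein receptor VLDLR (0.75 ± 0.07), the lysosomal cholesterol binder NPC2 (0.60 ± 0.06) and the sterol transfer gene OSBPL2 (0.57 ± 0.05) rose. The HDL receptor SCARB1 (-0.56 ± 0.05) and OSBP (-0.34 ± 0.06) fell. With IKK16 6 of the 10 were lower, where 12.9% of all genes were, with NPC1 first (-0.41 ± 0.06), and SCARB1 was higher (0.22 ± 0.05). Of 8 genes that modify cholesterol 4 passed the filter. NCEH1, which hydrolyses cholesterol esters, went from 8.57 ± 0.969 to 93.9 ± 2.87 CPM in M1 medium (3.45 ± 0.08), and from 72.5 ± 4.77 with DMSO to 30.8 ± 1.07 CPM with IKK16 (-1.23 ± 0.07). LCAT rose (0.95 ± 0.32), and SULT2B1, which sulfates cholesterol, and SOAT1, which esterifies it, fell (-1.39 ± 0.08 and -0.55 ± 0.07). SULT2B1 was higher with IKK16 (0.37 ± 0.09).

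Of 11 genes of fatty acid supply and activation tested, 8 were lower in M1 medium and 2 higher (median -0.56), where 31.9% and 32.9% of all genes were. THRSP, a lipogenic regulator, went from 2.02 ± 0.0696 to 0.307 ± 0.137 CPM (-2.71 ± 0.27), and ACSS1, the mitochondrial relative of ACSS2, from 3.70 ± 0.322 to 0.962 ± 0.0227 CPM (-1.94 ± 0.21). ACSL4, which activates polyunsaturated fatty acids, fell as well (-0.87 ± 0.21). ACSL5, a relative of ACSL3, rose from 1.12 ± 0.245 to 44.9 ± 0.868 CPM (5.32 ± 0.12), the opposite direction to ACSL3, and ME2 rose beside it (0.33 ± 0.06). With IKK16 THRSP reached 1.45 ± 0.0683 CPM from 0.366 ± 0.0849 with DMSO (1.99 ± 0.29), ACSS1 rose (1.02 ± 0.24), ACSL1 rose (0.46 ± 0.05) and ACSL5 fell (-1.03 ± 0.08).

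Of 9 further elongation and desaturation genes tested, 4 were lower in M1 medium and 2 higher, beside 31.9% and 32.9% of all genes, with ELOVL2 (-1.38 ± 0.21), HACD2 (-0.67 ± 0.05) and SCD5 (-0.56 ± 0.08) lowest and HSD17B12 (0.34 ± 0.07) and ELOVL1 (0.12 ± 0.05) higher. With IKK16 HACD2, HSD17B12 and SCD5 were higher (0.22, 0.29 and 0.32). Of 11 genes of glycerolipid synthesis and storage 6 were higher and 1 lower (median 0.15), where 32.9% and 31.9% of all genes were. AGPAT2 and DGAT2, acyltransferases on the path to triglyceride, rose (0.72 ± 0.08 and 0.62 ± 0.06), as did MGLL, a lipase (0.28 ± 0.06), and GPAM, the first acyltransferase, fell (-0.57 ± 0.08). AGPAT2 was lower with IKK16 (-0.40 ± 0.08), the 1 call of that list. Of 10 genes of fatty acid oxidation 4 were higher and 5 lower (median -0.15), beside 32.9% and 31.9% of all genes. ACADVL (0.45 ± 0.05), HADHB (0.32 ± 0.05) and SLC25A20 (0.23 ± 0.09) rose, and ECI1 (-0.81 ± 0.09), CPT2 (-0.54 ± 0.05) and ACADM (-0.33 ± 0.04) fell. IKK16 raised CPT1A, CPT2 and ACADM of that list (0.31, 0.26 and 0.17).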

How the data were processed

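PolyA RNA of 18 LNCaP libraries was analysed from 1 table of expected counts per RefSeq transcript, which the authors deposited without normalisation; all its values are multiples of 0.5. Per the submitters' processing notes, the build is hg38 and the tools were Trimmomatic, BWA 0.7.17 and HOMER 4.10. The sources used here do not give their roles, nor how strand and reads matching several places were handled. Of 70507 transcripts, 69830 were named from a RefSeq gene table (GRCh38.p14) and 327 from GENCODE 29, and 350 without a name (0.0916 to 0.1115% of counts) were left out. Each gene was represented by its transcript with most counts in total (30 of the 39 genes have several), and counts were rounded.

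edgeR 4.0.16 in R 4.3.3 was run with TMM scaling, filterByExpr (17033 of 28086 genes kept) and quasi-likelihood tests in a single model of the 18 libraries and their 6 group means, for 9 comparisons, two-sided, with Benjamini-Hochberg adjustment over all genes tested and a threshold of 0.05. The common biological coefficient of variation was 0.0627. Dividing the log2 fold change by the root of F gave its SE, and 95% intervals are 1.96 SE to either side. CPM values use TMM-scaled library sizes. A gene without counts in a library is limited to 3 counts, and such limits and the tests cover no amplification error, since no molecular identifiers are stated. Gene overlaps and lengths came from the RefSeq table and GENCODE 29. The fit was tested on simulated data. The alternatives were DESeq2 1.42.0, another scaling (RLE), no filter, a filter of 1 CPM in 3 libraries, a fit of the 2 groups alone, the replicate number as a block, removal of the trend with length, both together, the longest transcript, and each library left out.

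The members, the other gene lists and the branches were chosen with earlier results of these data known. Values in every library are given for members that passed with at least a 1.5-fold change in M1 medium against control or in IKK16 against DMSO and for SREBF1, SREBF2, INSIG1, HMGCS1, SQLE, FASN, SCD and ABCA1, and from other lists up to 3 called genes per direction are named, except for some that are not reported here. Lists are given by counts and medians with no test. The gene lists do not hold every gene of these pathways.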

Additional observations from a re-analysis of the deposited data

How the results depend on the processing

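Alternatives were run for the 39 genes, not for genes of other lists. None of the 39 changed direction with a call in any comparison, and 32 of the 34 calls for M1 medium against control held under all 15 alternatives (9 other settings and 6 libraries left out); HMGCS1 and FDFT1 did not. For IKK16 against DMSO 15 of 24 held, and 3 lower members became 5 in a fit of the 2 groups alone. For M0 medium against control 6 higher members became 1 and 3 lower became 1 in that fit; 3 lower became 6 without the filter and 5 with DESeq2. For M2 medium 3 higher members became 0 in that fit, 7 with the length trend removed, 6 with the replicate block and that removal, and 8 with DESeq2, and 6 lower became 1 in that fit. For DMSO against M1 medium 5 higher members became 8 with RLE scaling, with the filter of 1 CPM and with the replicate block, 10 with the length trend removed, 11 with both, 9 in that fit and 9 with DESeq2, and 0 lower became 1 in the length, both, fit and DESeq2 settings. Over all genes, calls for M0 medium went from 2004 to 792 and for M2 medium from 1494 to 206 in that fit. For DMSO they went from 724 to 1223 with the length trend removed, 1089 with the block as well, 1570 in that fit and 1284 with DESeq2. For M2 against M0 medium they went from 18 to 40 without the filter, 10 with the block, 5 in that fit and 44 with DESeq2. The fit of 2 groups has fewer samples; the cause of the other shifts was not tested.

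With each library left out in turn, members higher and lower ranged from 0 to 6 and 0 to 6 for M0 medium against control (all genes called 30 to 2733), 0 to 10 and 2 to 10 for M2 medium (164 to 2662), and 0 to 10 and 0 to 1 for DMSO (71 to 1487). They ranged from 16 to 18 and 1 to 3 for IKK16 against DMSO, and calls of all genes from 0 to 36 for M2 against M0 medium. The pair of libraries left in a group is assumed to vary like the other groups. Same-numbered replicates showed little common deviation (correlations from -0.15 to 0.15). Pairing by number was thus not detected, though so few libraries cannot exclude it. With the replicate block 8 members were higher and 26 lower in M1 medium against control, as without it. With IKK16 against DMSO 19 were higher and 3 lower under that block.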
